A study of Rattus norvegicus with 43 samples.

Results

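Low expression of Hba-a3, a hemoglobin alpha chain gene, was examined in the anterior pituitary glands of rats. Of 43 animals, 9 formed the low Hba-a3 class and the other 34 formed the comparison group. The classes are not in the labels. They were chosen by a measured value, the level of the 1 probe set annotated to Hba-a3 alone, and an animal was placed in the low class when the log2 of its intensity plus 16 was below 10. The level of Hba-a3 in each class is therefore a description and was not tested.

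The animals were F2 males from a cross of Copenhagen (COP) females with ACI males, with the F1 generation intercrossed. Every animal carried a subcutaneous implant with 5 mg of diethylstilbestrol (DES), a synthetic estrogen, from 9 weeks of age and was killed 12 weeks later, at 21 weeks of age, and every animal had received the thymidine analog BrdU (50 mg/kg) 4 hours before. No animal was left untreated, and no label gives the genotype or the pituitary weight class of an animal, although the design text states that the 43 were taken from the extremes of pituitary weight. Each animal contributed 1 gland and 1 array, and RNA of blood left in the gland was measured together with that of the gland.

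Hemoglobin of adult red cells is a tetramer of alpha and beta chains with 1 heme group each, and it is made by red cell precursors and carried, with some remaining mRNA, into reticulocytes. Alpha-like and beta-like chains are encoded in separate gene clusters on different chromosomes. In the RefSeq annotation of assembly GRCr8, the rat cluster of alpha-like genes lies on chromosome 10 and runs in the order Hbq1, Hba-a3, Hba-a2, Hbq1b, Hba-a1 and Hbz. Hbq1 is listed there as a pseudogene and is the gene immediately next to Hba-a3, Hbq1b is a theta chain gene that lies between Hba-a2 and Hba-a1, and Hbz encodes the embryonic zeta chain. Next to the cluster is Nprl3, the gene whose introns hold distal enhancers of the alpha chains in mammals.

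The 3 adult alpha chain genes have similar promoters, and these are shown because the Hba-a3 level set the classes apart while the probe sets of Hba-a2 and Hba-a1 overlapped between them. The sequences are the 200 bases before the annotated start, from RefSeq and GRCr8, which is the genome of the BN strain and of neither parent of this cross, and the genes are read from the minus strand. Capitals mark motifs that were searched on both strands. They are the TATA box TATAAA, the upstream promoter element CCAAT, and the core letters GATAAG that GATA factors bind. The regions are chr10:15816944-15817143 for Hba-a3, chr10:15829139-15829338 for Hba-a2 and chr10:15842581-15842780 for Hba-a1.
Hba-a3: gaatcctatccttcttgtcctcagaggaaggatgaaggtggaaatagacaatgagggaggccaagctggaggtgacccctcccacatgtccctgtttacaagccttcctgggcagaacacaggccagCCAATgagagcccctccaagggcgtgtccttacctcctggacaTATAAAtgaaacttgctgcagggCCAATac
Hba-a2: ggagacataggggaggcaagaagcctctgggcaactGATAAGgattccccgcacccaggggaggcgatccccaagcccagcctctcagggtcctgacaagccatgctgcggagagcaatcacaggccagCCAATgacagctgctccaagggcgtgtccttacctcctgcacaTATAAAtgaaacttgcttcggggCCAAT
Hba-a1: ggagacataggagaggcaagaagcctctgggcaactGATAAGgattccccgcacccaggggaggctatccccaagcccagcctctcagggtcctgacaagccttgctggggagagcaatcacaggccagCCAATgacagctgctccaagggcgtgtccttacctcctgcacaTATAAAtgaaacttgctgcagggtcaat

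Over the 100 bases nearest the start, 89 of 96 aligned bases were identical between Hba-a3 and Hba-a1, 86 of 96 between Hba-a3 and Hba-a2, and 95 of 100 between Hba-a2 and Hba-a1. Over all 200 bases the counts were 149 of 175, 146 of 177 and 193 of 200 in that order, so that Hba-a3 stood further apart upstream. All 3 promoters held TATAAA, beginning 30 bases before the start in Hba-a3 and 28 bases before it in the other two, and all 3 held CCAAT 71 to 73 bases before the start. The letters GATAAG began 164 bases before the start of Hba-a2 and of Hba-a1 and were not in the 200 bases of Hba-a3. Of 33469 promoters of the same length, the TATA box was in 10.4%, the CCAAT element in 29.2% and the GATA core in 4.90%. These matches describe the BN reference sequence, and the alleles of COP and ACI were not read here.

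Hba-a3 intensities (linear units as deposited) were 61.2 in animal 20, 76.9 in animal 11, 81.9 in animal 9, 202.3 in animal 32 and 216 in animal 22. They were 252.5 in animal 33, 304.5 in animal 37, 309 in animal 27 and 469.6 in animal 34. The other 34 animals lay between 5538.3 and 14885.3, with a median of 8730. No animal lay in between, and the 3 lowest animals were below the median intensity of any array, which ranged from 123.1 to 142.

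On the log2(intensity + 16) scale, which is used from here on, Hba-a3 was 7.63 ± 0.94 in the low class and 13.23 ± 0.43 in the other animals (SD, n = 9 and n = 34). The members nearest the boundary of 10 were animal 34, at 8.92, and animal 38, at 12.44, so that the gap was 3.52. The widest step between neighbouring values among the other animals was 0.16. Boundaries of 9 or 11 gave the same classes.

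**Figure D1:**
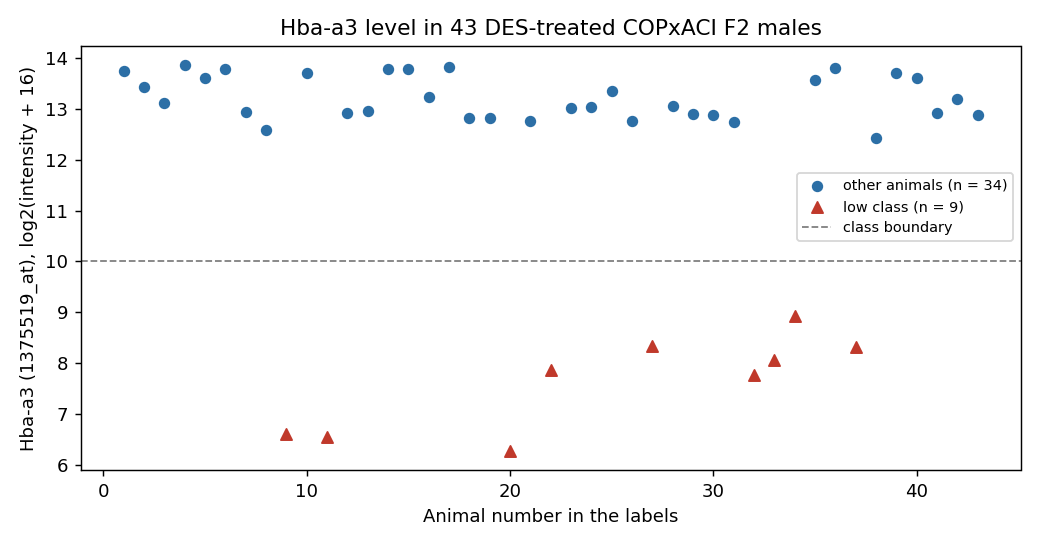
Hba-a3 level (y axis, log2(intensity + 16)) of each of the 43 animals (points) against the animal number in the labels (x axis). The 9 low-class animals (triangles) lie between 6.27 and 8.92 and the 34 other animals (circles) between 12.44 and 13.86, on either side of the dashed boundary at 10.

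The low class held 20.9% of the animals (exact 95% confidence interval 10.0% to 36.0%, which covers the sampling of animals only). Of the animals numbered 1 to 22, 4 were in the low class, and of those numbered 23 to 43, 5 were. No difference in animal number between the classes was detected by an exact 2-sided Wilcoxon rank-sum test (p = 0.435, adjusted p = 0.653 over 3 comparisons). The same exact test gave p = 0.418 for the 3'-end signal of actin over its 5'-end signal and p = 0.692 for that of GAPDH, the array's measures of RNA integrity. The mean correlation of an array with all other arrays was 0.9711 to 0.9755 in the low class and 0.967 to 0.976 in the other animals, apart from animal 43, at 0.927.

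Of the markers chosen for the anterior lobe, Prl, Gh1 and Tshb were bright in both classes. Prl, the hormone of lactotrophs, was 15.62 in the low class and 15.61 in the other animals, and Gh1, growth hormone, 15.12 and 14.93. Tshb, the marker of thyrotrophs, was 12.58 and 12.35. The gonadotroph markers Fshb, Lhb and Gnrhr had median intensities of 254 to 311.3 in the low class and 171.6 to 255.25 in the others. Pomc, the marker of corticotrophs, was too dim to be tested, with median intensities of 55.6 and 24.15, below the median of every array. Markers of the posterior lobe were dim, with median intensities of 34.4 and 17.6 for Avp and 17.2 and 16.7 for Oxt, below the median of every array. Of the markers of red cells, the beta chain Hbb was among the bright probe sets in every animal, whereas Slc4a1, the anion exchanger of the red cell membrane, had median intensities of 70.4 and 82.1 and was too dim to be tested.

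The first question was whether other globin transcripts were low in the same animals. There are 3 probe sets annotated to both Hba-a2 and Hba-a1. They were part of the fit over all probe sets and none was called, but near-identical transcripts can share probes with that of Hba-a3, so they are not independent of the rule and their values are given as a description. On probe set 1370239_at the low class ranged from 14.12 to 14.97, with a median of 14.58, and the other animals from 13.88 to 15.42, with a median of 14.64. The means were 14.51 ± 0.31 and 14.58 ± 0.40 (SD, n = 9 and n = 34). All 9 low-class animals thus lay inside the range of the others, on a probe set whose lowest intensity in the low class was 17849.2.

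The low-class mean was 14.40 against 14.55 on 1370240_x_at, where again all 9 animals were inside the range of the others. It was 13.50 ± 0.34 against 13.82 ± 0.39 on 1388608_x_at (SD, n = 9 and n = 34), where 6 of the 9 lay above the lowest of the other animals and 8 of the 9 lay below their median. The widest of these differences was -0.32 on the log2 scale, and that of Hba-a3 was at least 3.52 for every pair of animals from the different classes.

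Hbb, the adult beta chain, ranged from 12.43 to 13.71 in the low class, with a median of 13.18, and from 12.67 to 15.23 in the other animals, with a median of 13.54. The means were 13.22 ± 0.46 and 13.49 ± 0.63 (SD, n = 9 and n = 34), a difference of -0.27 with a 95% confidence interval of -0.70 to 0.16 (limma, adjusted p = 0.980). Of the 9 low-class animals, 8 were inside the range of the others. A lower amount of beta chain RNA per red cell and a lower number of red cells cannot be told apart in such whole-gland samples.

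The probe sets annotated to the further beta chain genes Hbbl1 and Hbb-bs did not pass the test either. On 1371102_x_at the means were 11.11 ± 0.34 and 11.44 ± 0.83 (SD, n = 9 and n = 34), with a confidence interval of the difference of -0.88 to 0.21. On 1371245_a_at they were 10.68 ± 1.33 and 10.44 ± 2.16, with an interval of -1.22 to 1.69. Values of this last probe set were spread widely in both classes, from 7.99 to 12.05 and from 6.32 to 13.46, so that a class difference of over 1 log2 unit in either direction stayed inside its interval. They fell into a lower and a higher set, with no animal between 7.99 (animal 27) and 9.62 (animal 12). Of the low class only animal 27 was in the lower set, beside several of the other animals, and without it the difference was 0.57. The means and the interval describe such a split poorly. The embryonic globin genes Hbz, Hbe1, Hbe2 and Hbg1 had median intensities of 5.4 to 20.1 in the low class and 4.75 to 10.3 in the other animals and did not pass the filter.

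**Figure D2:**
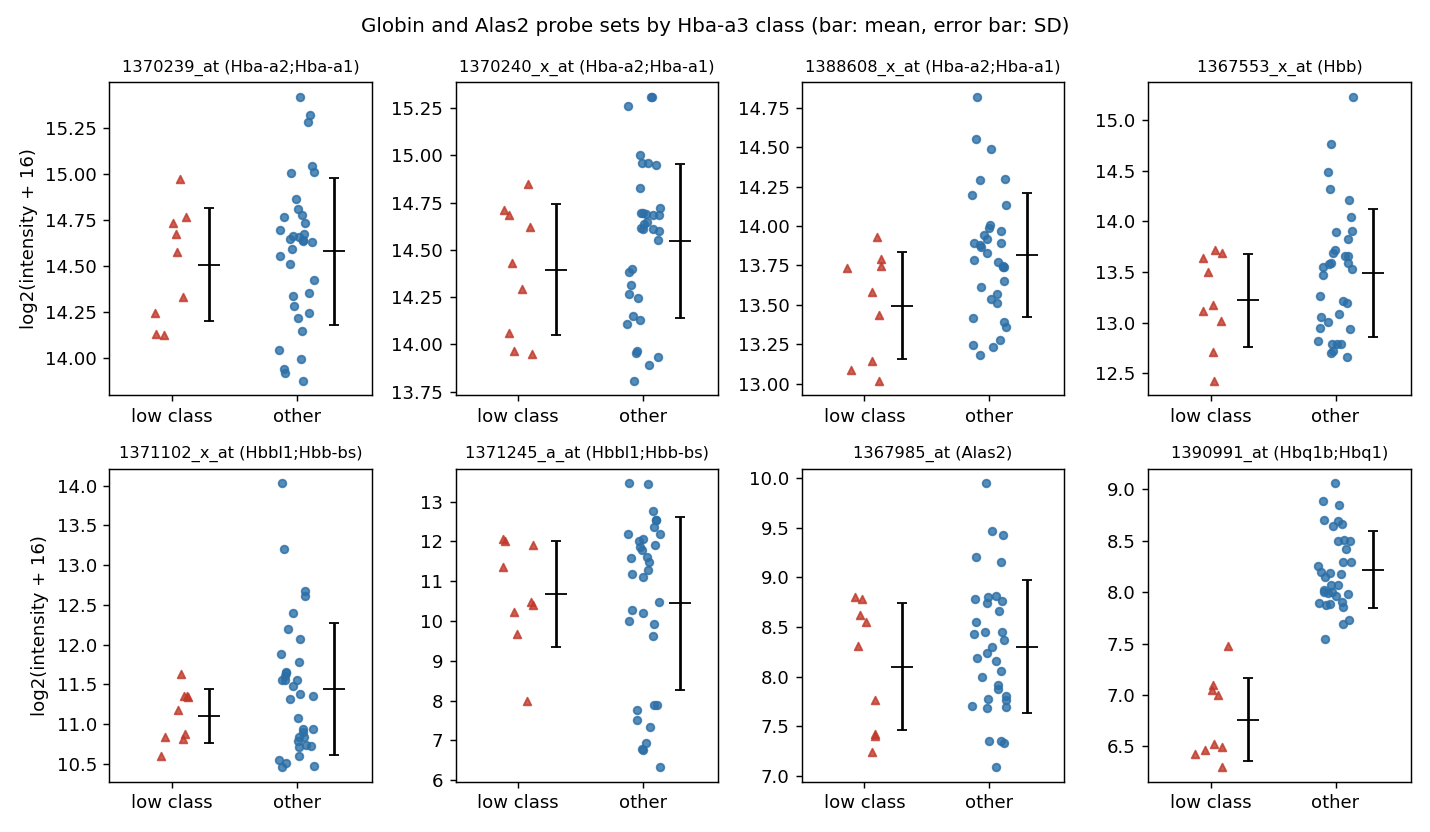
Log2(intensity + 16) of 8 probe sets (y axes, each with its own range) in the 9 low-class animals (triangles) and the 34 other animals (circles); bars give the mean and whiskers the SD. The classes overlap in 7 panels, those of the alpha and beta chains and Alas2, and are apart only for 1390991_at, annotated to Hbq1b and Hbq1, at 6.29 to 7.48 against 7.54 to 9.06.

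Outside the globins, Alas2, which catalyses the first step of heme synthesis in red cell precursors, was 8.10 ± 0.64 in the low class and 8.30 ± 0.67 in the other animals (SD, n = 9 and n = 34; difference -0.20, 95% confidence interval -0.68 to 0.28, limma adjusted p = 0.988). All 9 low-class animals were inside the range of the others. Ahsp, the chaperone that binds free alpha chains, was 7.14 and 7.17, with an interval of the difference of -0.36 to 0.31. The summed intensity of the erythroid markers Hbb, Alas2, Slc4a1 and Ahsp was 5859 to 13969.6 in the low class, with a median of 9690, and 6880.7 to 39493.7 in the other animals, with a median of 12543. This sum is mostly the globin Hbb, whose own median intensities were 9264.4 and 11922, so that it largely repeats the Hbb values above.

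Of 11 genes of the red cell membrane and its regulators that passed the filter, none was called, 4 were lower and 7 higher in the low class, and the median difference was 0.02 against 0.01 over all 15520 probe sets. Rhd, a blood group antigen of the red cell membrane, had a difference of 0.37 in favour of the low class (unadjusted p = 0.026, limma), which did not pass adjustment. Of 11 genes of heme synthesis none was called, and their median difference was 0.03. Over all 15520 probe sets 0.0258% were called, so that an absence of calls in lists of this size says little about their genes. Of 10 genes of heme and iron handling none was called either, with a median of -0.02 and with the widest differences for the iron exporter Slc40a1 (-0.44, 95% confidence interval -1.16 to 0.27) and the heme oxygenase Hmox1 (-0.44, -1.19 to 0.31).

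Hba-a3 was then set against Hbb and Alas2 inside each class. Within the 9 low-class animals the Pearson r of Hba-a3 with Hbb was 0.797 (exact permutation p = 0.0133, adjusted p = 0.0265 over 4 relations), and Spearman's rho was 0.75 (exact p = 0.0255, adjusted p = 0.102). With Alas2, r was 0.813 (exact permutation p = 0.0116, adjusted p = 0.0265) and rho 0.583 (exact p = 0.108, adjusted p = 0.216). When the 2 low-class animals farthest from the class median of Hbb were left out, r with Hbb was 0.735. Without the 2 farthest from the class median of Alas2, r with Alas2 was 0.649. Both relations passed by r and neither by rank. They rest in part on the 3 animals whose Hba-a3 intensities were below every array median, where the probe set may not be above background, and the same Hba-a3 values set the class, so that r is given as a description of these 9 animals.

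Within the 34 other animals r was -0.025 with Hbb and -0.026 with Alas2 (permutation p = 0.888 and 0.884; rho 0.013 and -0.071). Whether r differs between the classes was not tested. In the low class both measures also moved with the animal number: the 4 animals numbered 1 to 22 had Hba-a3 levels of 6.27 to 7.86 and Hbb levels of 12.43 to 13.12, and the 5 numbered 23 to 43 had levels of 7.77 to 8.92 and 13.18 to 13.71. The part of the animal number in these relations was not tested.

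**Figure D3:**
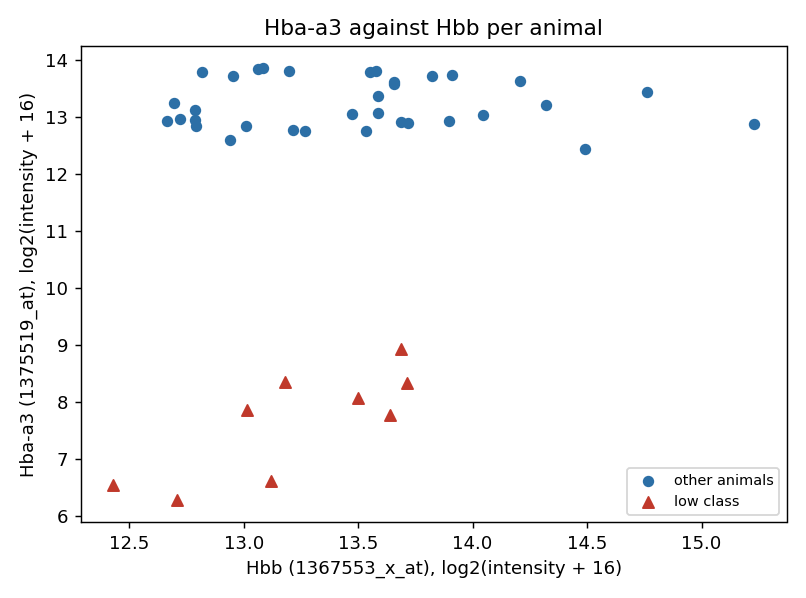
Hba-a3 (y axis) against Hbb (x axis), both as log2(intensity + 16), in the 9 low-class animals (triangles) and the 34 other animals (circles). Hbb levels of the classes overlap between 12.67 and 13.71 while Hba-a3 levels are at least 3.52 apart, and r is 0.797 in the low class and -0.025 in the other animals.

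All other probe sets were compared between the classes with limma, with Benjamini-Hochberg adjustment over the 15520 that passed the filter on dim probe sets. Only 4 passed an adjusted p of 0.05 (0.0258%), all 4 lower in the low class (0.0258%) and none higher (0%). At an unadjusted p of 0.05, 741 probe sets passed (4.77%), 325 of them lower and 416 higher. The values of 1 probe set did not overlap between the classes (0.00644%). The 4 are the alpha-like 1390991_at, Msrb1, Dusp1 and the unnamed 1389845_at. The first and the last are named by their probe set only and fall outside the rule for naming genes, so that they were singled out after their values were seen.

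Probe set 1390991_at, annotated to both Hbq1b and Hbq1 of the alpha cluster, had the lowest p and was the one without overlap. Intensities were 62.5 to 162.1 in the low class, with a median of 76, and had a median of 269.5 in the other animals. On the log2 scale the low class ranged from 6.29 to 7.48 and the other animals from 7.54 to 9.06. The means were 6.76 ± 0.40 and 8.22 ± 0.37 (SD, n = 9 and n = 34), a difference of -1.46 (SE 0.14, limma adjusted p = 8.67e-10). This is a 2.75-fold difference of intensity + 16 (95% confidence interval 2.27 to 3.33). The low-class mean lay under the filter of 7.16, and the low-class median intensity of 76 under the median of every array, so that the probe set passed the filter through the other animals, and whether it was above background in the low class was not tested. Which of the theta genes is read by the probe set cannot be told from the annotation. Probe sequences were not used here, so whether this alpha-like probe set also reads Hba-a3 RNA was not tested. Its p-values, for the class and for the slope below, may therefore not be independent of the rule.

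Msrb1, a selenoprotein that reduces oxidised methionine, ranged from 8.11 to 9.18 in the low class, with a median of 8.82, and from 8.78 to 10.15 in the other animals, with a median of 9.56. A single animal of the others, number 43, lay below the highest low-class animal. The means were 8.71 ± 0.32 and 9.61 ± 0.32 (SD, n = 9 and n = 34), so that the other animals had 1.86-fold the level of the low class (95% confidence interval 1.58 to 2.19, limma adjusted p = 7.88e-06).

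Dusp1, a phosphatase that inactivates MAP kinases and an immediate early gene, ranged from 12.22 to 12.84 in the low class and from 12.24 to 13.28 in the other animals, with medians of 12.39 and 13.01. All 9 low-class animals lay below the median of the others, and 9 of the other animals lay below the highest low-class animal, number 32. The means were 12.43 ± 0.19 and 12.98 ± 0.21 (SD, n = 9 and n = 34), a 1.47-fold difference (95% confidence interval 1.32 to 1.63, limma adjusted p = 1.98e-05). A second probe set of Dusp1, 1368147_at, did not show it. Its means were 10.81 and 10.75, with an unadjusted p of 0.488, so that the probe sets of this gene disagree.

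The unnamed probe set 1389845_at ranged from 9.87 to 10.36 in the low class and from 10.26 to 11.14 in the other animals, with medians of 10.03 and 10.65. There were 3 low-class animals above the lowest of the others. The means were 10.09 ± 0.20 and 10.66 ± 0.23 (SD, n = 9 and n = 34), a 1.49-fold difference (95% confidence interval 1.33 to 1.67, limma adjusted p = 4.86e-05).

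The next probe sets by p did not pass. Igf2, an imprinted growth factor, had a difference of -0.82 (adjusted p = 0.0866), with 8 of 9 low-class animals below the median of the others. Kcnip1, a subunit that modulates potassium channels, had -0.57 (adjusted p = 0.0866) and Dnaja3, a mitochondrial cochaperone, had -0.27 (adjusted p = 0.111; all 3 by limma), with all 9 low-class animals below the median in both cases. Igf2 and Dnaja3 were singled out after their values were seen. The low-class mean of Igf2, 6.72, lay under the filter, and its low-class median intensity of 87.9 under the median of every array. Whether Igf2 was above background in the low class was not tested. Further Igf2 probe sets did not pass the filter and were not tested. Their means in the low class and the others were 5.00 and 4.86, 5.45 and 5.50, and 4.67 and 4.48.

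The classes use only which side of the boundary Hba-a3 lay on. Its variation among the 34 other animals, from 12.44 to 13.86, was not used by the rule, and the slope of every probe set on the Hba-a3 level was fitted within these animals, a test added after the class comparison was seen. The same 34 animals enter the class comparison, so that the fits share samples. Of 15520 probe sets 4 passed (0.0258%), and 1171 passed an unadjusted p of 0.05.

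Within the other animals, 1390991_at was higher by 0.71 (SE 0.09, limma adjusted p = 2.53e-05) per log2 unit of Hba-a3, beside a class difference of -1.46. The slope of 1389845_at was 0.42 (SE 0.06, adjusted p = 6.47e-04), beside a class difference of -0.57. Msrb1 had a slope of 0.55 (SE 0.09) and Dusp1 of 0.37 (SE 0.06), with an adjusted p of 0.00166 each by limma, beside class differences of -0.90 and -0.55. These were the 4 that passed, and for 1390991_at a sharing of probes with Hba-a3 was not tested. Without animals 38 and 43, the lowest of the other animals for Dusp1 and for Msrb1, all 4 still passed.

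In contrast, the slopes of Hbb (-0.04, adjusted p = 0.989) and Alas2 (-0.04, adjusted p = 0.989) did not pass by limma, with standard errors of 0.24 and 0.26. Kcnip1 had a slope of 0.30 and Dnaja3 of 0.22 that did not pass (adjusted p = 0.588 and 0.444), and Igf2 of 0.27 (adjusted p = 0.784).

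**Figure D4:**
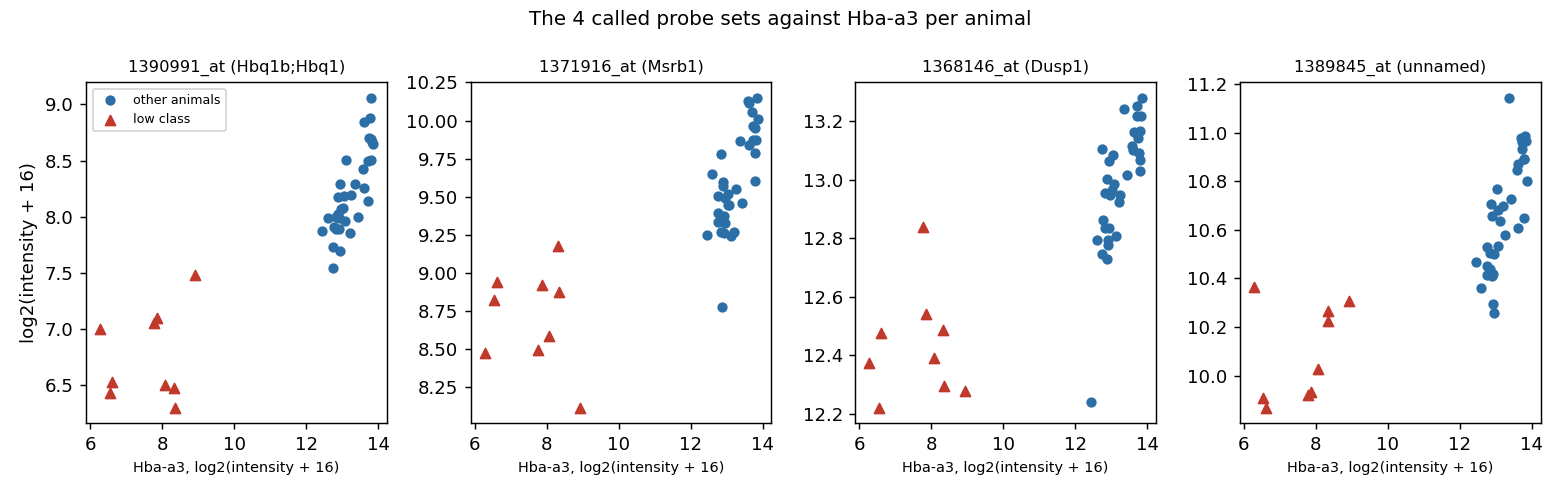
Log2(intensity + 16) of the 4 probe sets that passed the class comparison (y axes) against Hba-a3 (x axes, same scale) in the 9 low-class animals (triangles) and the 34 other animals (circles). The mean of the low-class animals is lower in every panel, and within the other animals the slopes are 0.71, 0.55, 0.37 and 0.42 from left to right.

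Because Hba-a3 lies on chromosome 10, the class differences were read along the order of its genes. Of the 9406 genes with a tested probe set of their own, 794 were on chromosome 10, among them Msrb1 and Dusp1, and no gene of another chromosome was called. In gene order Msrb1 lies 98 genes before Hba-a3 and Dusp1 46 genes after it, or 38 and 14 when only tested genes are counted. The distances are places in the RefSeq order of GRCr8 and were not converted to bases.

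The share of genes with an unadjusted p below 0.01 was 3.15% on chromosome 10 and 0.925% over all 9406 genes, and it was 0% to 1.31% on the other chromosomes. Of the 25 such genes on chromosome 10, 16 were lower and 9 higher in the low class, and 16 were among the 121 tested genes that precede Hba-a3 in the order, with the remainder among the 673 that follow. At an unadjusted p below 0.05 chromosome 10 stood less apart, with 6.80% against 4.41% over all genes and 6.10% on chromosome 8, the next highest. By distance from Hba-a3, this share was 14% among the 100 nearest tested genes, 9% among the next 100, 11.6% of the 121 that followed up to a distance of 200, 4.5% of the 200 up to a distance of 400 and 2.93% of the 273 beyond. These shares describe 1 set of animals in which neighbouring genes are inherited together, and they were not tested.

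Genes near Hba-a3 were counted from probe sets annotated to a single gene, which leaves out 1390991_at, the called probe set of Hbq1 and Hbq1b, both within 25 places of Hba-a3. Of the 50 genes within that distance, 15 were tested through a probe set of their own and none of these was called, 12 were lower and 3 higher, and the median difference was -0.08 against 0.01 over all probe sets. Nprl3, with the alpha chain enhancers in its introns, had a difference of -0.14 (unadjusted p = 0.068), Mpg, a DNA repair glycosylase, -0.08 (p = 0.247) and Luc7l, a splicing factor, -0.11 (p = 0.055). The largest was that of Pgap6, 13 places before Hba-a3, with 7.70 ± 0.35 in the low class and 8.18 ± 0.42 in the other animals (SD, n = 9 and n = 34; difference -0.48, limma adjusted p = 0.861). Within 50 places 34 genes were tested and 1, Dusp1, was called, beside 0.0258% called over all probe sets.

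In a list of genes chosen from the conserved order around the alpha chain cluster, 18 were tested, none was called and 13 were lower. Over all probe sets 0.0258% were called. Most of the 18 genes are among those within 25 places counted above, so that the counts are not separate results. Ubtd2, Stk10, Fbxw11 and Kcnip1 of the list lay 52 to 71 places after Hba-a3. At an unadjusted p of 0.05, which 4.77% of all probe sets passed, Pgap6, Kcnip1, Rhbdf1 and Fam234a had negative differences and Fbxw11 a positive one.

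**Figure D5:**
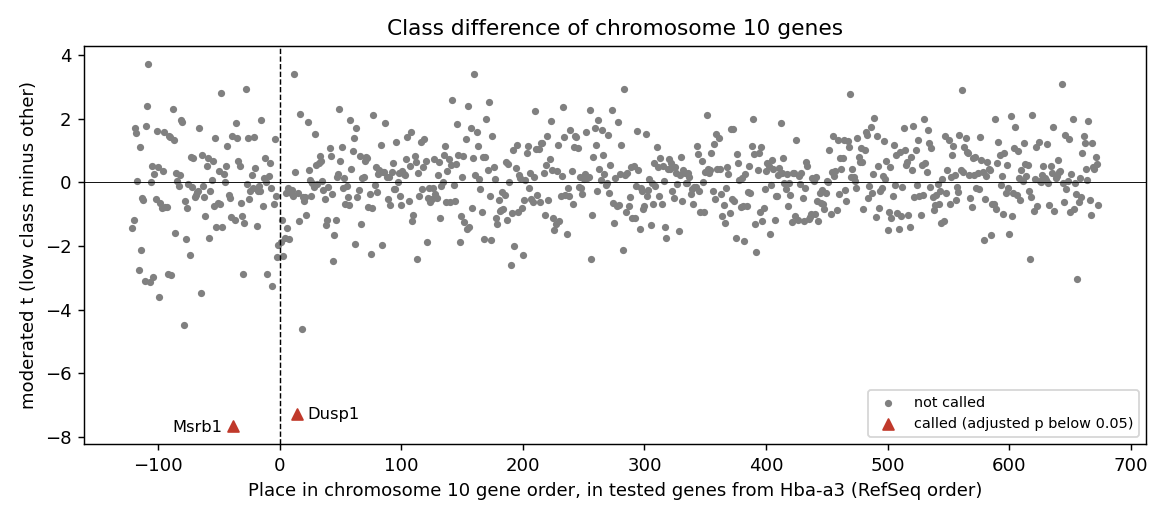
Moderated t of the class difference (y axis, low class minus other animals) for 794 genes of chromosome 10 (points) in RefSeq gene order (x axis, in tested genes from Hba-a3, dashed line). The 2 called genes, Msrb1 at -38 and Dusp1 at 14 (triangles), have the lowest values, and 16 of the 25 genes with an unadjusted p below 0.01 lie left of the dashed line.

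Cells other than red cells were compared in the same fit, which called 0.0258% of all probe sets. An absence of calls in lists of this size therefore says little about their genes. Of 16 hormone and lineage genes of the anterior lobe that passed the filter none was called, 13 were higher in the low class and the median difference was 0.10. Among them, Vip, the vasoactive intestinal peptide, had a difference of 0.59 (95% confidence interval -0.05 to 1.23), Lhb, the beta subunit of lutropin, 0.23 (0.01 to 0.45, unadjusted p = 0.042) and Tshb, the beta subunit of thyrotropin, 0.23 (-0.42 to 0.89). Of 20 proliferation genes none was called, and the median was 0.03. Of 6 endothelial genes none was called, and the median was 0.04.

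Of 12 macrophage genes none was called, 11 had a lower mean in the low class and the median difference was -0.16, and Tyrobp, a signalling adaptor of myeloid cells (-0.26, unadjusted p = 0.043), and Aif1 (-0.19, unadjusted p = 0.028) were below an unadjusted p of 0.05. The summed intensity of the 12 genes was 15853 to 20016 in the low class, with a median of 17635, and 14934 to 25865 in the other animals, with a median of 19934. Of 3 platelet and leukocyte genes, the platelet chemokine Pf4 (-0.38, unadjusted p = 0.036) and Ptprc, the common leukocyte antigen (-0.26, unadjusted p = 0.041), had negative differences and were not called, and Lyz2, lysozyme, had a difference of -0.02 (unadjusted p = 0.920). Over all probe sets 4.77% had an unadjusted p below 0.05 and 0.0258% were called. The summed intensity of the 15 listed platelet and leukocyte genes with a probe set was 2464.4 to 4300 in the low class, with a median of 3138, and 1940.6 to 6326.5 in the other animals, with a median of 3367. The part of blood or macrophage content in the class differences was not tested beyond these values.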

How the data were processed

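Intensity values of 43 arrays were used as deposited by the authors, with 1 linear value for each probe set. The authors had scaled them, since trimming 2% of the probe sets at each end left a mean of 500.17 to 500.22 on all arrays. Which software summarised the probes, and a genome build, are not given in the sources used here. That scaling was kept, 16 was added and the log2 was taken, which understates the change of dim probe sets. No arrays held identical values, and the labels describe separate animals. Precision is limited by how many arrays there are.

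Of 31099 probe sets, 57 were controls. The platform annotation gave 1 gene for 20826, several genes for 436, and none for 9780 others that are unnamed here. Of the gene identifiers, 99.6% were found in the RefSeq table. The 15520 non-control probe sets whose mean log2 exceeded the median (7.16), the Hba-a3 probe set left out, were compared by limma 3.58.1 (lmFit and eBayes, R 4.3.3), with Benjamini-Hochberg adjustment and a threshold of 0.05. Genes with several probe sets are represented by the brightest. The exact Wilcoxon tests of animal number and of RNA integrity used scipy 1.17.1, and the Wilcoxon test over all probe sets ran in R. Permutation p-values were counted over 100000 permutations for the 34 animals and over every pairing for the low class. Alignment of promoters used Biopython 1.88 and plots matplotlib 3.10.9. The comparison was tested on simulated data: at 15520 probe sets 90% of differences of 2 SD and 15% of those of 1 SD were recovered, and 9 probe sets with no difference were called. Many more probe sets were given a difference there than were called in the real comparison. This eases the Benjamini-Hochberg threshold, so that the recovered shares are higher than the real comparison would reach.

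The class rule, the gene lists, the tests and the alternatives were chosen with earlier results of these data known. The genes named are list members, the called genes with the highest and lowest moderated t, genes whose classes do not overlap and called genes within 25 places of Hba-a3, all from singly annotated probe sets. Alternatives were the class boundary, pseudocount, filter, normalization, covariates, a Wilcoxon test, Hba-a3 as a continuous term and leaving out animals. The slopes within the other animals and the fits without animals 38 and 43 were added after the data were seen. Pituitary weight classes and genotypes were not used here.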

Additional observations from a re-analysis of the deposited data

How the results depend on the processing

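The class comparison called 3 to 6 probe sets over 27 alternative settings, and the 4 probe sets named above were all called in 26 of them. The settings that only moved the class boundary are counted here. They gave the same classes and so the same fit, and their agreement is not a separate check. With the filter at the 75th percentile 3 were called, since 1390991_at was then not tested. The 4 differences kept their direction and their side of the threshold in every setting in which they were tested. In the fits with 2 classes they ranged over -1.61 to -1.14 for 1390991_at, -0.96 to -0.82 for Msrb1, -0.60 to -0.53 for Dusp1 and -0.61 to -0.54 for 1389845_at. With Hba-a3 as a continuous term the values are per log2 unit of lower Hba-a3, at -0.27, -0.16, -0.10 and -0.11 in that order. With 50 genes on either side of Hba-a3 in place of 25, 1 was called. The slope within the other animals called 11 probe sets with a spline over animal numbers, 4 or 5 in the other 3 settings, and all 4 of the report in each; the cause was not tested.

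With Hbb as a covariate the difference of Alas2 was 0.0616, that of 1370239_at 0.0824 and that of 1370240_x_at 0.0116, with the direction turned. Alas2 was not called, and the other two are descriptions. Kcnip1 was called with array medians subtracted (-0.59), without animal 32 (-0.63), with Hba-a3 as a continuous term and without animals 38 and 43 (-0.58), and Igf2 without animal 20 (-0.94), with Hbb as a covariate (-0.91) and with a step between animals 22 and 23 (-0.77). Without a filter 1396441_at, unnamed, was also called (-1.04, adjusted p = 0.00567 by limma). No paired analysis was possible because the labels give 1 group.

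With 9 animals in the low class, differences of about 1 SD were mostly below what the test can call, and the simulation overstates the recovery of wider ones. A lack of calls among red cell, macrophage or neighbouring genes therefore does not show equal levels. Whether COP or ACI sequence alters hybridisation to a probe set was not tested, since genotypes and probe sequences were not used here.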
